A study of Saccharomyces cerevisiae with 2 samples.

Results

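The 4680 calls described here are the sharply positioned nucleosome calls of a yeast MNase-seq experiment. They are the 10% with the highest sharpness among the 46801 called positions with at least 100 read midpoints within 73 bp. Sharpness is the share of these midpoints that lie within 20 bp of the called position, and the calls were chosen by it with both libraries added. The remaining 42121 calls with enough midpoints are named the other calls. Saccharomyces cerevisiae was grown in YPD, a rich medium, and fixed with formaldehyde, its chromatin was digested with MNase, and DNA of about 147 bp was cut from a gel and sequenced from 1 end. The labels name 1 condition with 2 libraries, replicate 1 with 21973866 reads and replicate 2 with 19288900 reads, and give no genotype or treatment beyond this, while the study's supplement lists the yeast strain as BY. Whether the libraries came from separate cultures is not stated. With 2 libraries of 1 condition no test over samples can be made, so every comparison of sharp and other calls is a description with the value of each library.

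A nucleosome is DNA wrapped around an octamer of histones, and MNase digests the linkers in between more readily than the wrapped DNA. The 5′ end of a read therefore marks a cut beside a protected stretch, and the midpoint of the fragment marks its centre. Where most cells hold a nucleosome at the same place, the midpoints crowd around one base. In yeast, regular rows of nucleosomes are known to start beside nucleosome-depleted stretches such as promoters.

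The sharpness of the 4680 calls reached from 69.1% to 100%, with a median of 73.4% and with 95% of them up to 84.7%. The other calls had a median of 51.7%, and midpoints spread evenly over the 147 bp would give 27.9%. These values chose the calls and are given as a description. The last calls inside the limit lay at position 409560 of chromosome 7 (69.0733%, 928 midpoints) and at position 65998 of chromosome 3 (69.0722%, 970 midpoints). The first ones outside it lay at position 755881 of chromosome 12 (69.0698%, 430 midpoints) and at position 979487 of chromosome 15 (69.0667%, 375 midpoints). The limit cuts a continuous range, and calls on either side of it were almost equal in sharpness.

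Within the sharp calls, the median sharpness was 71.4% in replicate 1 and 76.9% in replicate 2, against 50.1% and 53.4% in the other calls. Replicate 2 had the higher value at 3530 sharp calls (75.4%), with a median difference of 5.38 percentage points, and at 63.9% of the other calls, with a median difference of 2.90 points. Sharpness passed the limit in replicate 1 at 3108 sharp calls and in replicate 2 at 4306, and 2734 (58.4%) are in both of these counts. Most of the calls below the limit in a library were thus below it in replicate 1. Across the 46801 calls, sharpness in the libraries had a Pearson's r of 0.744, and within the narrow range of the 4680 sharp calls r was 0.186. These points share the place of the call, which was set from both libraries together.

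The number of midpoints behind a sharp call ranged from 100 to 2136, with a median of 495, against a median of 564 at the other calls. The ratio of these medians was 0.878. It turned to 1.17 when the calls were chosen anew with all reads at a position counted, in place of at most 20 per library, position and strand. Calls with few midpoints were chosen more often. Sharp calls made up 16.4% of the calls with 100 to 200 midpoints and 6.65% of those with 1000 or more, and counting error is larger at the shallow calls. At the sharp call with the most midpoints, at position 343473 of chromosome 9, 1523 of 2136 midpoints lay within 20 bp (71.3%, exact 95% binomial interval 69.3% to 73.2%). At position 253277 of chromosome 12, 1 of 6 sharp calls with the fewest midpoints, this was 88 of 100 (88.0%, interval 79.98% to 93.6%).

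Both strands should contribute to a nucleosome's midpoints, since its fragments are read from either end. At 598 sharp calls (12.8%), under 20% of the midpoints came from one of the strands, against 4098 other calls (9.73%) and 10.0% of all calls with enough midpoints. With a limit of 5%, there were 103 sharp calls (2.20%), against 226 other calls (0.537%) and 0.703% of all. The 6 sharpest calls of the genome were all of this kind, with at most 1.92% of the midpoints from the weaker strand. The top 2 lay at the ends of their chromosomes, at position 49 of chromosome 10 (215 midpoints) and at position 54 of chromosome 9 (638 midpoints), and had a sharpness of 100% in both libraries. Position 515389 of chromosome 4 also had 100% in both libraries, from 131 midpoints. Position 362122 of chromosome 13 had 98.2% in replicate 1 and 100% in replicate 2 with 101 midpoints. Position 26859 of chromosome 15 had 98.0% and 99.1% with 311 midpoints, and position 571949 of chromosome 7 had 99.4% and 95.7% with 261 midpoints. Such calls are peaks of reads in 1 direction, and several values below are also given without them. The sharpest call of a chromosome ranged from 89.9% to 100% over the 16 chromosomes.

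The sharpest calls with at least 20% of the midpoints from each strand, picked out after the values had been seen, had depleted flanks on both sides, on 1 side or on neither. At position 82494 of chromosome 3, 63 of 65 midpoints of replicate 1 (96.9%) and 56 of 57 of replicate 2 (98.2%) lay within 20 bp, and both flanks were depleted, at 0.210 and 0.215 times the mean number of midpoints per base of the genome. At position 328619 of chromosome 7, 120 of 126 midpoints (95.2%) and 105 of 110 (95.5%) lay within 20 bp, with flanks at 0.0457 and 0.218 times the mean. Position 336381 of chromosome 9 had 93.4% and 96.9% between flanks at 1.06 and 1.88 times the mean, so its sharpness came without depletion on either side. At position 322104 of chromosome 14, sharpness was 90.4% in replicate 1 and 100% in replicate 2, where 53 midpoints were counted. At position 370448 of chromosome 9 it was 86.9% and 100%, with 0.0726 times the mean on the right flank. Position 62241 of chromosome 4 had 89.9% and 94.2%, with 42.8% of the midpoints from the weaker strand and adjacent calls of only 48.3% and 42.9% sharpness. The 6 calls had 122 to 290 midpoints, fewer than the median sharp call.

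The 5′ ends around the sharp calls formed a pair of peaks, 1 on each strand. Sharpness was computed from these same ends after they were moved, so that narrow peaks follow from the choice, and their positions and widths are given as a description. Plus-strand ends were most frequent 43 bp before the called position in both libraries, and minus-strand ends 44 bp after it in replicate 1 and 43 bp after it in replicate 2. Among plus-strand ends up to 110 bp before the call, 26.7% and 29.1% lay within 5 bp of the peak in replicates 1 and 2. At the other calls these shares were 18.1% and 19.6%. Among minus-strand ends up to 110 bp after the call, the shares were 26.3% and 28.7%, against 18.0% and 19.6% at the other calls. The distance with the highest correlation between the strands, taken over pairs of bases around the calls, was 85 bp in both libraries at the sharp calls (r of 0.147 and 0.174), against 94 and 73 bp at the other calls (r of 0.0776 and 0.105). With calls chosen from a library alone, the distance at the sharp calls was 85 bp in replicate 1 and 74 bp in replicate 2, so the shared 85 bp belongs to the calls chosen from both libraries together. An 85 bp distance is shorter than the DNA of about 147 bp that was cut from the gel, and the reason was not tested. The 5′ ends were moved inward to give midpoints, 47 bp for replicate 1 and 42 bp for replicate 2, and the strand distance is not free of these moves. When each end was moved by 73 bp, the strand distance of the then sharpest calls was 68 bp, and 22 of the 4680 sharp calls (0.470%) were found again within 20 bp.

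**Figure D1:**
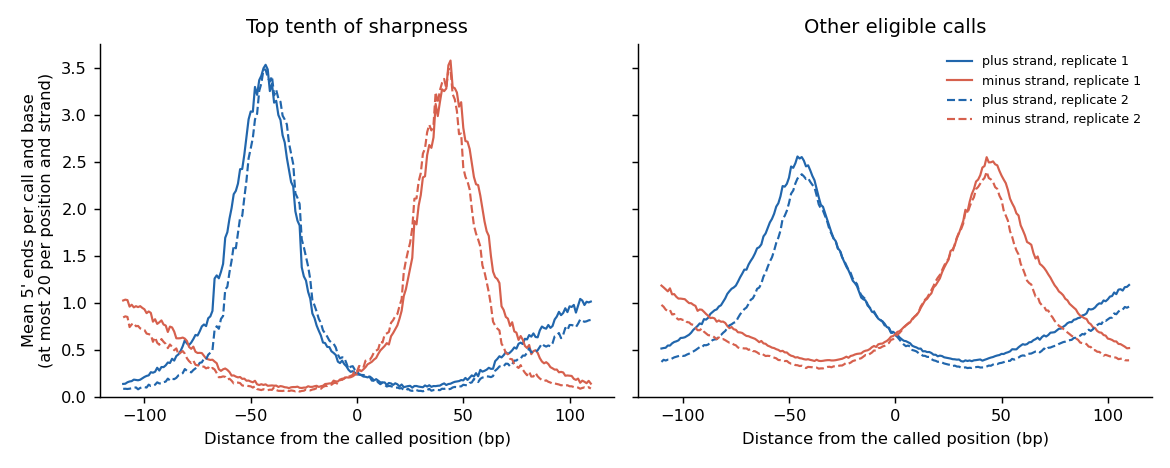
Mean number of 5′ ends per call and base against the distance from the called position in bp, for the 4680 sharp calls on the left and the 42121 other calls on the right, with a line for each strand and library. The peaks at the sharp calls stand 43 to 44 bp from the call and are narrower than at the other calls, as the choice by these ends implies, with 26.3% to 29.1% of the ends within 5 bp of the peak, against 18.0% to 19.6%.

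To see whether a call that was sharp in a library was also sharp in the library that had no part in its choice, positions were called and chosen from each library alone and measured in the other. The 4442 calls chosen in replicate 1 had a median sharpness of 73.1% in replicate 2, against 51.5% at the 39985 calls of replicate 1 that were not chosen. The 4155 calls chosen in replicate 2 had a median of 67.7% in replicate 1, against 49.2% at the 37395 not chosen. The middle 90% of the chosen calls reached from 57.6% to 87.4% in replicate 2 and from 52.6% to 81.4% in replicate 1, so the chosen and unchosen calls overlapped. The difference of the medians, averaged over both directions, was 20.1 points. It fell to 8.99 points when each position and strand was counted once, and in that setting 49.0% of the 4680 sharp calls were chosen again. Reads piled up on single bases no longer weigh there. The setting also removes reads across the peaks of the sharp calls. In replicate 1, these held a mean of 3.53 plus-strand ends per base 43 bp before the call. Which of these lowered the difference was not tested.

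**Figure D2:**
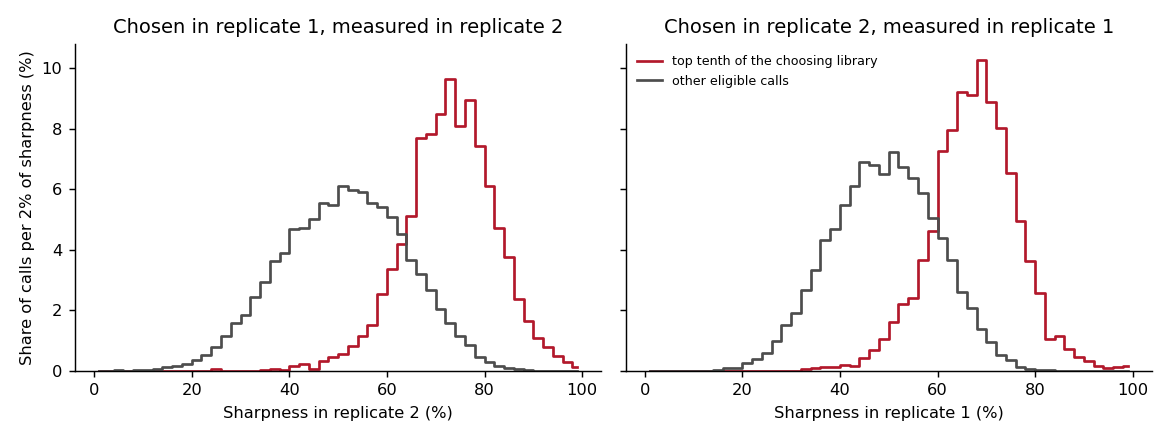
Share of calls per 2% of sharpness against sharpness in the library that did not choose them, with the chosen 10% in red and the other calls in grey. In both directions the chosen calls peak to the right of the others, with medians of 73.1% against 51.5% in replicate 2 and 67.7% against 49.2% in replicate 1, and the curves overlap.

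The top 10% of the libraries coincided in part. Within 20 bp, 2151 calls were in the top 10% of both, which is 48.4% of the 4442 chosen in replicate 1 and 51.8% of the 4155 chosen in replicate 2. Of all calls with enough midpoints, 8.60% of those of replicate 1 met a chosen call of replicate 2, and 9.32% of those of replicate 2 met one of replicate 1. The place itself was shared more often than the rank, since 87.1% and 92.0% of the chosen calls had a call with enough midpoints within 20 bp in the other library. Of the 4680 sharp calls, 2086 (44.6%) were in the top 10% of each library alone, 1941 in that of 1 library, and 653 (14.0%) in that of neither.

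Sharp calls lay beside stretches depleted of midpoints about 2.09 times as often as the other calls. A flank, the stretch from 80 to 200 bp from the call, was named depleted where it held under 0.25 times the mean number of midpoints per base of the genome. This counts absent reads of any kind, also where a flank ran past the end of a chromosome. The calls at position 49 of chromosome 10 and position 54 of chromosome 9 were counted in this way. Whether reads could be placed in the empty flanks was not tested. At least 1 flank was depleted at 2386 sharp calls (51.0%), against 10265 other calls (24.4%) and 27.0% of all calls with enough midpoints. In replicate 1 the shares were 50.2% of the sharp and 23.5% of the other calls, and in replicate 2 they were 53.5% and 27.3%. The difference between sharp and other calls was thus far larger than that between the libraries. Exactly 1 flank was depleted at 2001 sharp calls (42.8%), against 9310 other calls (22.1%). Both flanks were depleted at 385 sharp calls (8.23%), against 955 other calls (2.27%) and 2.86% of all. A flank with no midpoint at all stood beside 227 sharp calls (4.85%), against 346 other calls (0.821%) and 1.22% of all. Of these 227 sharp calls, 120 had under 20% of the midpoints from one strand. Where each strand gave at least 20%, a flank was empty at 107 sharp calls (2.62%), against 302 other calls (0.794%), and both flanks were depleted at 272 sharp calls (6.66%), against 840 other calls (2.21%).

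Midpoints of a neighbouring nucleosome that come within 73 bp of a call lower its sharpness, so a depleted flank is not fully independent of the choice. With sharpness taken over the midpoints within 50 bp only, an alternative added after seeing the data, the difference in the share with a depleted flank was 25.1 points, against 26.6 points with 73 bp. In the library that did not choose, 51.2% of the calls chosen in replicate 1 and 44.8% of those chosen in replicate 2 had a depleted flank, against 25.6% and 20.8% of the calls not chosen. Most called places are shared by the libraries, so measuring in the other library does not undo the link between flank and choice. Among the 4082 sharp calls with both strands well represented, 2008 (49.2%) had a depleted flank, against 23.7% of such other calls.

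Depleted flanks were most frequent at sharp calls with few midpoints and were more frequent than at the other calls in all 8 ranges of depth. With 100 to 200 midpoints, 72.7% of the sharp and 51.3% of the other calls had a depleted flank. With 400 to 500 midpoints the shares were 49.9% and 22.3%, and with 1000 or more they were 41.6% and 16.5%. The share also climbed over the whole range of sharpness. From the least to the most sharp 10% of the calls, it was 14.9%, 17.5%, 19.0%, 21.1%, 24.7%, 25.1%, 27.6%, 31.6%, 37.9% and 51.0%. The step into the sharpest 10% was the largest of these steps, and no step ran the other way in either library.

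**Figure D3:**
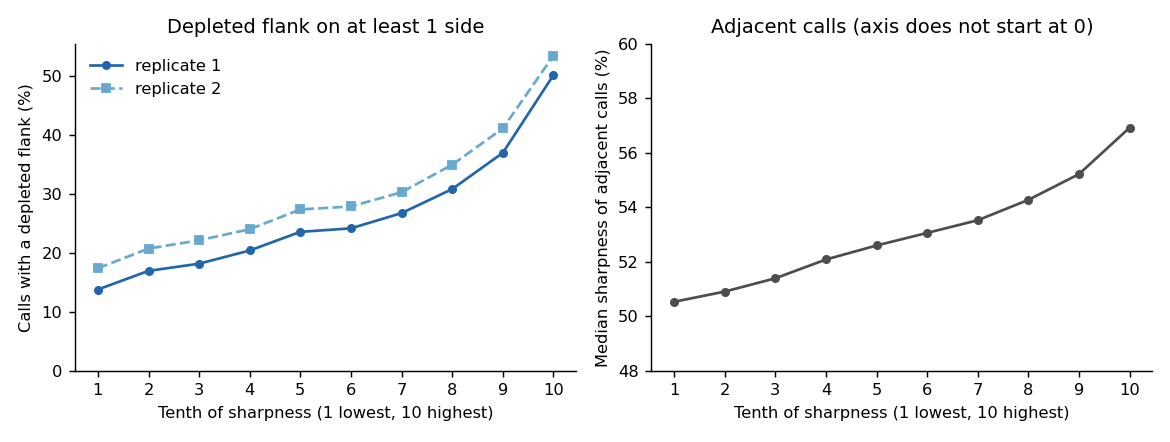
Share of calls with a depleted flank in each library (left) and median sharpness of the adjacent calls within 300 bp with libraries added (right), both in percent, against the classes of 10% of the calls ordered from the lowest to the highest sharpness. The share reaches 50.2% and 53.5% in the sharpest calls, and the adjacent calls reach 56.9%, on an axis that does not start at 0.

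The same held along the genome. Between 47.4% and 55.5% of the sharp calls of a chromosome had a depleted flank, against 22.8% to 28.9% of the other calls, so that the ranges over the 16 chromosomes did not overlap. The chromosomes share both libraries and are not replicates.

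**Figure D4:**
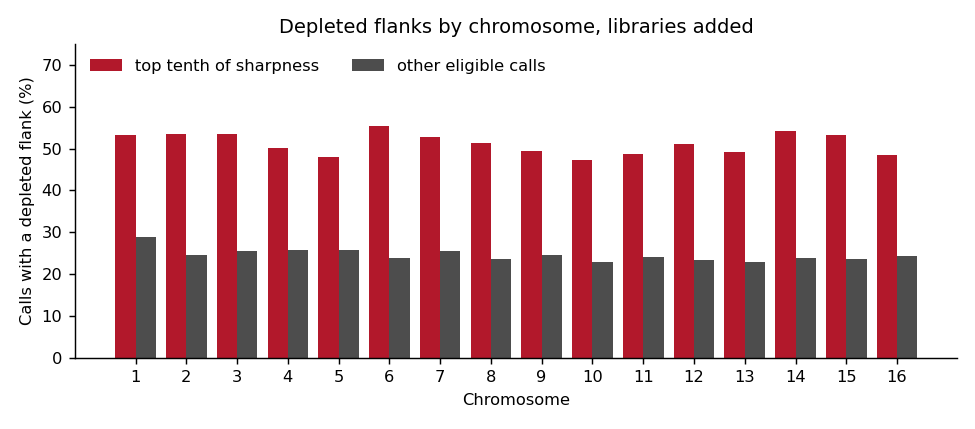
Share of calls with a depleted flank in percent on each of the 16 nuclear chromosomes, sharp calls in red to the left of the other calls in grey, with libraries added. Red bars stand between 47.4% and 55.5% and grey bars between 22.8% and 28.9%.

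With both sides averaged, depleted flanks included, the profile showed a deep gap beside the sharp calls and a lower first neighbour. At the call, midpoints reached 3.47 times the genome mean in replicate 1 and 4.05 times in replicate 2, against 2.72 and 2.94 times at the other calls, which reflects the choice. The first dip was at 0.162 times the mean 74 bp from the sharp calls in replicate 1, and at 0.127 times 71 bp away in replicate 2. At the other calls it was at 0.517 and 0.492 times. The first neighbouring peak stood 169 and 168 bp from the sharp calls with 1.29 and 1.27 times the mean, against 1.45 and 1.46 times at 170 bp from the other calls. Further peaks around the sharp calls came at 330 and 482 bp in replicate 1 and at 329 and 480 bp in replicate 2. Beyond the first neighbour, whose dip lies at the edge of the window of the choice, the wave was also steeper. The profiles are centred on the called positions, around which midpoints are tighter at the sharp calls by the choice. The later peaks and dips are therefore not free of the choice either. The second peak was 1.69 and 1.71 times as high as the dip before it at the sharp calls, against 1.49 in either library at the other calls, and the third peak was 1.38 and 1.40 times as high, against 1.29 in either.

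A single depleted flank gives a call a direction. When the 2001 sharp calls of this kind were turned so that the depleted flank lay on the left, that flank held 0.0750 and 0.0618 times the genome mean, against 0.111 and 0.0885 times at the 9310 other calls of this kind. On the right, the first 3 neighbours of the sharp calls peaked at 170, 338 and 500 bp in replicate 1 and at 169, 338 and 499 bp in replicate 2. Their heights were 1.84, 1.49 and 1.35 times the mean in replicate 1 and 1.81, 1.49 and 1.36 times in replicate 2. At the other calls, the neighbours peaked at 170, 334 and 492 bp in replicate 1 and at 170, 333 and 491 bp in replicate 2. Their heights there were 1.80, 1.45 and 1.30 times the mean in replicate 1 and 1.79, 1.44 and 1.31 times in replicate 2. Away from a single depleted flank, the first neighbour was thus not lower at the sharp calls. The second peak stood 2.38 times over its preceding dip in both libraries at the sharp calls, against 1.88 and 1.87 times at the other calls. The third stood 1.74 and 1.77 times over its dip, against 1.52 and 1.54 times. The average wave leading away from a depleted flank was thus steeper where it began with a sharp call, and the third peak lay 8 bp farther out in either library. These profiles too are centred on calls chosen by sharpness, and how much this adds to the steeper wave was not tested.

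**Figure D5:**
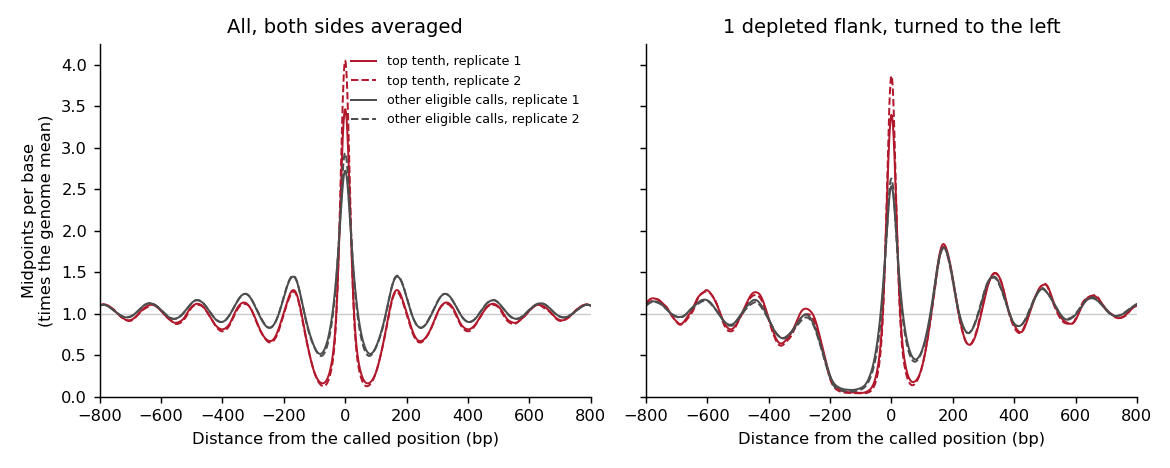
Midpoints per base as multiples of the genome mean (1 is drawn as a grey line) against the distance from the call in bp, for all calls with both sides averaged on the left and for calls with 1 depleted flank turned to the left on the right, sharp calls in red and other calls in grey. Sharp calls have the deeper gaps, and the neighbours on the right of the oriented sharp calls peak at 169 to 170, 338 and 499 to 500 bp.

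Along these rows, sharpness declined quickly with distance from the starting call. With libraries added, the first call away from the depleted flank had a median sharpness of 56.9% (n = 1595) where the row began with a sharp call, and the next ones had 54.5%, 52.8%, 52.5%, 51.8% and 52.4% (n = 510 for the last). In rows that began with another call, the medians were 53.7%, 52.9%, 52.3%, 52.6%, 52.4% and 52.6%. The rows differed at the first calls and came within 0.64 points of each other from the third call on. Midpoints of the starting call can come within 73 bp of the first call and lower its sharpness. The difference at the first calls is therefore not fully independent of the choice, and how much this adds was not tested. In replicate 1 the first call had 55.7% after a sharp and 52.3% after another call, and in replicate 2 it had 58.3% and 55.2%. Sharp calls were 15.3% of the first, 11.1% of the second and 9.50% of the third such calls after a sharp call, against 10.0%, 9.11% and 8.70% after another call. Across the depleted flank, the next call lay at a median of 267 bp from a sharp and 268 bp from another call. The facing call had enough midpoints in 1526 cases opposite a sharp call and in 7063 opposite another call. Among these, its median sharpness was 59.6% opposite a sharp call and 58.0% opposite another call, and 23.0% and 18.7% were themselves in the sharpest 10%. As background, 2386 of all 12651 calls with at least 1 depleted flank were in the sharpest 10%, a share close to the 18.7%.

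Over all sharp calls, whatever their flanks, the adjacent calls within 300 bp had a median sharpness of 56.9%, against 52.5% beside the other calls, a difference of 4.40 points. From replicate 1 alone the difference was 4.46 points and from replicate 2 alone 3.94 points. It shrank to 2.14 points with sharpness taken within 10 bp and to 2.30 points with midpoints counted within 50 bp. As midpoints of a call can come within 73 bp of an adjacent call, the sharpness of adjacent calls is not fully independent of the choice. The same limit holds for the shares of sharp calls among adjacent calls. A sharp call had another one as an adjacent call in 995 cases (21.3%), against 5230 of the other calls (12.4%) and 13.3% of all calls with enough midpoints. Sharp calls stood on both sides of 57 sharp calls (1.22%), against 235 other calls (0.558%) and 0.624% of all. The most frequent distance to an adjacent call was 158 bp at the sharp calls and 155 bp at the other calls. From replicate 1 alone it was 157 bp and 156 bp, and from replicate 2 alone 161 bp and 158 bp, so the libraries differed as much as the groups. The medians under 300 bp were 190.5 and 191 bp. The 147 bp kept free around each call bound these distances from below.

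Most sharp calls stood alone, as most calls have no sharp call beside them. They did so less often than the other calls, since 21.3% had a sharp call as an adjacent call. This share was 12.4% at the other calls and 13.3% at all calls with enough midpoints. There were 3685 without a sharp neighbour, 416 pairs, 49 runs of 3 and 4 runs of 4, with adjacent meaning within 300 bp. The run on chromosome 5, at positions 34039, 34256, 34421 and 34602, began beside a nearly empty flank (0.0161 times the mean) and had sharpness of 78.5%, 71.8%, 69.7% and 71.0%. On chromosome 10, the run at positions 617447, 617603, 617898 and 618061 spanned a depleted stretch between the inner calls, which lay 295 bp apart, and had 73.1%, 81.8%, 76.8% and 81.7%. Its second call had 15.5% of the midpoints from the weaker strand. The run on chromosome 11, at positions 348480, 348679, 348857 and 349104, had 71.0%, 74.1%, 71.5% and 81.9%, and its inner right gap of 247 bp was nearly empty as well. On chromosome 14, the calls at positions 532494, 532690, 532869 and 533034 had 85.2%, 71.2%, 70.8% and 69.2%, with no depleted flank at any of them, and the call at 532869 had 12.8% of the midpoints from the weaker strand.

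Sharp calls were spread over all chromosomes, with shares of the calls with enough midpoints between 9.17% on chromosome 2 and 11.1% on chromosomes 1 and 6. They were denser near chromosome ends. Within 10 kb of the first or last base with a read, 161 of 813 calls were sharp (19.8%), against 9.83% elsewhere, and within 20 kb 263 of 1865 (14.1%), against 9.83%. When only calls with at least 20% of the midpoints from each strand were counted, the shares were 13.6% within 10 kb, against 9.63% elsewhere, and 10.6% within 20 kb, against 9.66%. Part of the excess near the ends was thus made of calls read mainly from 1 strand.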

How the data were processed

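The sharp calls and all groupings were chosen with earlier results of these data known. The authors deposited, for each library, read positions with strand as lines of 150 bp, with no count, score or other value (the unit is a position). The submitters' processing notes name the build sacCer2. The aligner and the treatment of duplicates are not given in the sources used here. Positions are printed as deposited, counted from 1. No genome or annotation of that build was used, so the planned descriptions of sequence and of genes were not made.

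The software was Python 3.11.15, matplotlib 3.10.9, pandas 2.3.3, numba 0.67.0, scipy 1.17.1 and numpy 2.4.6. Reads of the 16 nuclear chromosomes had their 5′ ends moved toward 3′ by 47 bp (replicate 1) or 42 bp (replicate 2). The added midpoints were passed through a Gaussian filter (SD of 20 bp), and local maxima were taken from the highest down with 147 bp kept free, giving 49446 calls, of which 2645 had under 100 midpoints. All reads entered the calling. For midpoint counts, sharpness, flanks and profiles, at most 20 reads per library, position and strand were kept, 90.7% of replicate 1 and 88.5% of replicate 2. Profiles were smoothed with an SD of 8 bp and distance histograms with 3 bp. Scripts were tested on simulated data.

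Named positions were the 6 sharpest calls, the sharpest call of each chromosome as a range, 2 on either side of the limit, those with the most and fewest midpoints, and the longest runs. Exact binomial intervals cover counting error only, and only if reads are independent. Reads at the same position may not be, and the intervals do not allow for the choice of calls by sharpness. Alternatives changed the cap, smoothing, exclusion zone, minimum, windows, move and depletion limits, and left out each library. Requiring both strands, counting midpoints within 50 bp, leaving out chromosome ends and capping before calling were added after seeing the data.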

Additional observations from a re-analysis of the deposited data

How the results depend on the processing

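The number of sharp calls is 10% of the calls with enough midpoints by definition and says nothing of stability. The differences in depleted flanks, in the sharpness of adjacent calls and in the library that did not choose kept their direction in all alternatives run for them. Ranges with 1 library left out set the spread of the libraries, where they exist, and are given whether or not they passed it. Values that moved by more than this spread follow, and where the cause is not part of the setting itself it was not tested. For the sharpness of adjacent calls (4.40 points), they were 3.33 with 1 read per position and strand, 3.36 with smoothing by 10 bp, 2.14 and 5.24 with sharpness within 10 and 30 bp, 2.16 with a move of 73 bp, 2.30 with midpoints within 50 bp, and 3.94 to 4.46 with 1 library left out. For depleted flanks (26.6 points), they were 23.9 with no cap, 25.4 with smoothing by 10 bp, 25.1 with a minimum of 200 midpoints, 24.3 with sharpness within 10 bp, 25.1 with both strands required, 25.1 with midpoints within 50 bp, 22.4 and 24.8 with depletion limits of 0.5 and 0.1, 29.2 with flanks from 80 to 150 bp, and 24.5 to 26.0 with 1 library left out. For the distance to the adjacent call (158 bp), they were 161 with smoothing by 40 bp, 170 with a move of 73 bp, and 157 to 161 with 1 library left out. For the ratio of midpoints (0.878), they were 0.761 with 1 read per position and strand, 1.17 with no cap, 0.935 and 0.855 with smoothing by 10 and 40 bp, 0.911 when 120 bp were kept free, 0.924 with a minimum of 200, 0.726 and 0.975 with sharpness within 10 and 30 bp, 0.605 with a move of 73 bp, 0.915 with both strands required, 0.750 with midpoints within 50 bp, and 0.883 to 0.906 with 1 library left out. The strand distance (85 bp) was 68 with a move of 73 bp and 74 to 85 with 1 library left out. In the library that did not choose (20.1 points), the difference was 8.99 with 1 read per position and strand, 15.9 with sharpness within 10 bp, 15.8 with a move of 73 bp and 15.6 with midpoints within 50 bp, and leaving out a library gives no value there.

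The choice of calls depended more on the settings than these differences did. Of the 4680 sharp calls, 57.8% and 68.9% were chosen again with sharpness within 10 and 30 bp, 77.6% with midpoints within 50 bp, 81.6% with no cap, 83.9% with smoothing by either 10 or 40 bp, 99.9% when 120 bp were kept free and 93.8% with the cap also applied before calling. The libraries are of 1 condition, and the depth per call limits sharpness at calls with about 100 midpoints to within several points. No paired analysis was possible because there is only 1 group.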
